A study of Mus musculus with 13 samples.

Results

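Chromatin binding of the transcription factor TCF1, open chromatin and gene expression were described together in wild-type (WT) regulatory T cells (Tregs) of the mouse. Of the 13 libraries of the study, 7 were used, all wild-type: 1 for TCF1, 3 for open chromatin and 3 for expression. The input DNA of the TCF1 assay, also wild-type, was not analysed here. The mice were male C57BL/6 animals of the genotype Foxp3Cre-YFP, in which the Foxp3 gene drives both the Cre recombinase and a yellow fluorescent protein, and no floxed allele was named for this group. For expression (RNA-seq, 3 libraries) and open chromatin (ATAC-seq, 3 libraries), CD25+YFP+ cells were sorted from lymph nodes of mice that were 21 days old. For TCF1 (chromatin immunoprecipitation, ChIP-seq, 1 library), CD25+YFP+ cells came from lymph nodes and spleens of mice 10 to 12 weeks old, so the TCF1 data differ from the other data in age and tissue as well as in assay. Binding therefore has no replicate, and the labels do not say whether the 3 RNA or the 3 ATAC libraries came from separate animals, so that an SD or a p-value over them covers the spread between these libraries, which may be technical. The data hold 5876 TCF1 peaks, and 20205 of the 24313 named genes of the expression table could be tied to 1 locus and sorted by the number of TCF1 peaks in that locus plus 5 kb on either side.

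TCF1, the product of Tcf7, and its close relative LEF1 belong to the TCF/LEF family of DNA-binding proteins with a high-mobility-group box. They are best known as the nuclear end of the Wnt pathway, where they recruit β-catenin (Ctnnb1) to activate genes and TLE corepressors to silence them, and in T cells they also act without β-catenin. Tregs are CD4+ T cells that restrain immune responses under the control of Foxp3, and TCF1 is known to be high in their resting, lymphoid-homing fraction and lower in their effector fraction.

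The promoters shown here run from 250 bases before to 50 bases after a RefSeq transcription start in the mouse assembly GRCm38.p6, which underlies mm10, and are written 5′ to 3′ along the gene. The first set is shown because these are the promoters, among the 22 named genes with a TCF1 peak over the promoter, that hold letters of the TCF/LEF motif, which are in capitals. Any of 4 strings counted, on both strands: CTTTGAA, the string CTTTGAT, then the string CTTTGTA and the string CTTTGTT. Ctla4 encodes an inhibitory receptor that Tregs need for suppression, B2m encodes the light chain of MHC class I, and Kmt2d encodes a histone H3 lysine methyltransferase. The Ctla4 promoter lies at chr1:60908775-60909074 on the plus strand, and its letters lie inside the TCF1 peak, 27 bp from the peak's centre. In the B2m promoter, chr2:122147437-122147736 on the plus strand, the letters lie 193 bp from the centre, outside the peak. In the Kmt2d promoter, chr15:98871156-98871455 on the minus strand, they lie 16 bp from the centre of a peak that was open in 0 of the 3 ATAC libraries.
Ctla4: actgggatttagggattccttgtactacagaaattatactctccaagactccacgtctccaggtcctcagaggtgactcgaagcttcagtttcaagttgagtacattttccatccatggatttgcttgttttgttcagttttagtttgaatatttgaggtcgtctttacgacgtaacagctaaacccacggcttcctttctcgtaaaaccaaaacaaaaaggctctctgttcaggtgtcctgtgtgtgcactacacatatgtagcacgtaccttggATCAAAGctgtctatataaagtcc
B2m: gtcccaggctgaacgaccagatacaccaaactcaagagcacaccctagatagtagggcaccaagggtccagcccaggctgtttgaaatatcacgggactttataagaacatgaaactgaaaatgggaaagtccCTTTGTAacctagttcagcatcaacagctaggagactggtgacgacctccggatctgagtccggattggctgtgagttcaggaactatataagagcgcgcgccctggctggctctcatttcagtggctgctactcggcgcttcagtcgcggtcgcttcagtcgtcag
Kmt2d: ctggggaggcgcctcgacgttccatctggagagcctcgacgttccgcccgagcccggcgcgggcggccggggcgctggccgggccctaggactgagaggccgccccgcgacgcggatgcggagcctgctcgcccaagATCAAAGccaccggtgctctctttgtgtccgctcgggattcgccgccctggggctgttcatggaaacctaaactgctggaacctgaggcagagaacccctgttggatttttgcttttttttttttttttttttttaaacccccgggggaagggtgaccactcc

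A second set is shown because letters of another family, the ETS motif CCGGAAG, gathered under TCF1 peaks at promoters, as described with the motif counts. These are the 3 protein-coding genes with the highest expression among those with such letters under the peak, and they were chosen after their values were seen. All encode ribosomal proteins. The promoter of Rpl38 lies at chr11:114668330-114668629 on the plus strand, that of Rps26 at chr10:128626457-128626756 on the minus strand and that of Rps18 at chr17:33955616-33955915 on the minus strand. Capitals mark CCGGAAG where it stands on the printed strand, and 1 of the 2 stretches in Rps18 lies outside the peak.
Rpl38: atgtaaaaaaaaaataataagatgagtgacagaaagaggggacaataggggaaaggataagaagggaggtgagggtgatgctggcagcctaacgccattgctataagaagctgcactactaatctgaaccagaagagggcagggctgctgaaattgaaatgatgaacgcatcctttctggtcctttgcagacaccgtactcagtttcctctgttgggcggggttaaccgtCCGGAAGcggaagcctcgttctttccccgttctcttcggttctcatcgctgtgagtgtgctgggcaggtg
Rps26: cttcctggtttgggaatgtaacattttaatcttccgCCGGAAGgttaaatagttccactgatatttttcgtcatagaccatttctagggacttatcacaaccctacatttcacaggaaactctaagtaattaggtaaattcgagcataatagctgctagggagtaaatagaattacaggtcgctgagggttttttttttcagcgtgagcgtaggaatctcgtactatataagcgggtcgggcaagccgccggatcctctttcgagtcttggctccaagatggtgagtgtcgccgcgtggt
Rps18: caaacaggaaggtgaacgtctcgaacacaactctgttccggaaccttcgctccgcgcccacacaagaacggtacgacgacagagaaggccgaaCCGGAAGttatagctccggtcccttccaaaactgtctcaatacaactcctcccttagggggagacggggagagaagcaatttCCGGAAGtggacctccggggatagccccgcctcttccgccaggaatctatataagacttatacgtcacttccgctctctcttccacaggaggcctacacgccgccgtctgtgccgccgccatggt

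The RNA libraries held 25430644, 31527256 and 26320524 fragments on named genes in WT replicates 1, 2 and 3, and fragments were found on 19685, 15767 and 19779 genes. WT replicate 2 was the deepest and had the fewest detected genes, and this touches genes near 0 FPKM (fragments scaled to transcript length and library size) in the values given below. The ATAC lists held 41197, 35771 and 33204 peaks that covered 21.8, 19.3 and 17.2 Mb. The Treg label was checked against a list of 6 markers: Foxp3, Il2ra, Ctla4, Ikzf2, Cd4 and Cd3e. All 6 were at 1 FPKM or more, with summed FPKM of 814, 951 and 931. Cd4 and Cd3e, at 192 and 119 FPKM on average, are not particular to Tregs. The cells were sorted on CD25, which Il2ra encodes, and on the Foxp3 reporter. The summed FPKM of 8 B cell markers lay between 17.7 and 20.6, with 2 of 8 at 1 FPKM or more (Cd79b at 16.2 and Cd22 at 1.48), while Ms4a1 stood at 0.18. Those of 7 myeloid markers lay between 10.9 and 14.5, with 2 of 7 at 1 FPKM or more, of which Lyz2 stood at 9.17 and Cd68 at 2.19. Those of 9 CD8 T and NK cell markers lay between 27.7 and 34.4, with 4 of 9 at 1 FPKM or more, among them Nkg7 at 16.9, Cd8b1 at 6.88 and Prf1 at 6.14, while Cd8a stood at 0.086 and Ncr1 at 0.0156. The part of such cells in the results was not tested. The 5 thymocyte markers summed to between 21.0 and 26.1, of which Cd1d1 gave 22.9, with Rag1 at 0.0353 and Rag2 at 0.0188. The 7 epithelial, stromal and endothelial markers summed to between 56.2 and 58.4, of which Pecam1, which T cells also express, gave 52.4, and the 6 erythroid markers summed to at most 0.682, with Hba-a1, Hba-a2 and Hbb-bt listed at 0. These are bulk samples, in which fewer cells of a type and less RNA per cell cannot be told apart.

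TCF1 peaks lay in open chromatin at gene starts more often than elsewhere. Of the 5876 TCF1 peaks, each 142 bp wide in the deposited list, 5485 overlapped an ATAC peak of WT replicate 1 (93.3%), 5384 one of WT replicate 2 (91.6%) and 5314 one of WT replicate 3 (90.4%), a mean of 91.8% ± 1.46 (SD, n = 3). With a stricter ATAC threshold, which kept only peaks at or above the median q score of their library, the mean was 50.2%. Dropping peaks can only lower this share, and the scores do not follow the peaks' widths, so the size of the fall cannot be read. The order followed the number of ATAC peaks in each library. In all, 5212 TCF1 peaks (88.7%) were open in all 3 libraries, 202 in 2, 143 in 1 and 319 in none (5.43%, exact binomial 95% interval 4.86 to 6.04, which covers counting error only). The peaks outside every ATAC peak lay in other places than the rest: 16% of 307 lay within 1 kb of a start, against 59.3% of the 5074 that were open in all 3 libraries, and 57% against 25.4% lay inside a gene span. No second factor and no second TCF1 library was measured, so these shares have no comparison with another factor.

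Measured from the centre of the peak, 3123 of 5722 TCF1 peaks (54.6%) lay within 1 kb of a RefSeq start, 28.9% elsewhere inside a gene span and 16.6% outside gene spans. The median distance was 532 bp. The 154 other peaks lay on chromosome 18, which has no start in the table used, or on scaffolds. The regions open in all 3 libraries gave lower shares near a start, with 32.9% of 28585 within 1 kb, 42.8% inside gene spans and 24.2% outside them. Of the regions open in 1 library only, 7.56% lay within 1 kb of a start, and of those open in 2, 8.1%. TCF1 peaks exceeded the shared open regions most in the nearest 100 bp, which held 28.7% of the former and 13.1% of the latter. Between 10 and 25 kb the order was turned around, with 11% and 18.6%.

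**Figure D1:**
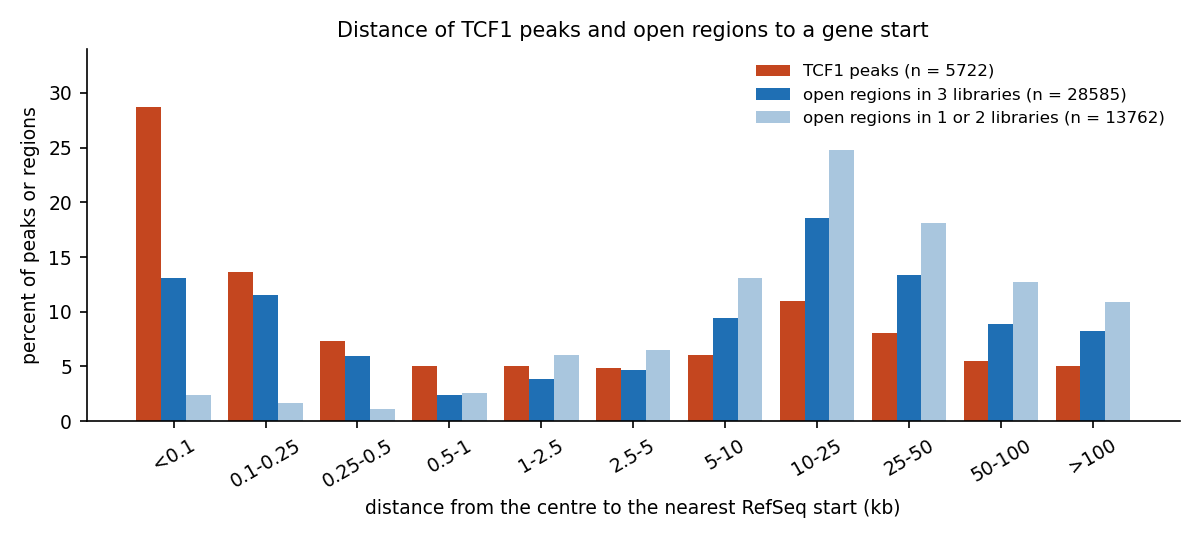
Percent of TCF1 peaks (red), of regions open in all 3 WT ATAC libraries (dark blue) and of regions open in 1 or 2 libraries (light blue) by distance from the centre to the nearest RefSeq start in kb. The red bar of the bin nearest to a start stands at 28.7% and the dark blue one at 13.1%, while both blue bars are above the red bar from 5 kb outward.

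Open regions were not bound alike. The 3 ATAC lists merged into 43832 regions, of which 29566 were open in all 3 libraries, 5875 in 2 and 8391 in 1. A TCF1 peak overlapped 4960 of the regions open in all 3 (16.8%), 2.14% of those open in 2 and 0.941% of those open in 1. Of the regions open in all 3, those within 1 kb of a start held a TCF1 peak in 30.1% of 9410 and those farther away in 10.4% of 19175. Bound regions were also wider, at a median of 1000 bp against 556 bp for the others, and a wider region has more room for a peak of any kind. Within 4 classes of width the difference by place was kept: from the narrowest to the widest class, 6.14%, 16.7%, 25.2% and 39.6% of regions near a start held a TCF1 peak, against 3.55%, 7.97%, 14.5% and 27.7% of those farther away. Per Mb of open sequence, TCF1 overlaps numbered 331 near starts, 191 inside gene spans and 177 outside them. Among the regions with TCF1, 4797 held 1 peak, 345 held 2, 22 held 3 and 1 held 4, a region of 2270 bp whose nearest start is that of Kdm7a, which encodes a histone demethylase.

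The X chromosome stood below the autosomes near starts. A TCF1 peak was found in 8.7% of its 322 open regions near a start (exact binomial 95% interval 5.86 to 12.3), against 26.9% to 36.5% on the autosomes with listed starts. Farther from starts the X had 6.12% (4.03 to 8.84) and those autosomes between 6.72% and 18%, so the interval of the X overlaps the lowest of them. The labels give the mice as male. Chromosome 11 had the highest share over all its open regions, 25.5%, followed by chromosome 19 with 22.9%.

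Genes with TCF1 peaks were expressed at higher levels than genes without. Over all 20205 genes, 5923 (29.3%) had at least 1 TCF1 peak in the locus plus 5 kb and 382 (1.89%) had 3 or more, with 14282, 4524 and 1017 genes at 0, 1 and 2. The median FPKM of genes with 0 peaks was 0.288, 0.241 and 0.278 in WT replicates 1, 2 and 3. With 1 peak it was 13.8, 13.7 and 13.7, with 2 peaks 18.5, 18.8 and 18.2, and with 3 or more 19.7, 22.0 and 21.0. The medians of the 4 classes did not overlap between libraries, and most of the rise lay between 0 and 1 peak. On the log2(FPKM + 1) scale the median was higher by 4.11 ± 0.10 (SD, n = 3) in genes with 3 or more peaks than in genes with 0. The step from 0 to 1 peak was 3.54, that from 1 to 2 was 0.40 and that from 2 to 3 or more was 0.17. Each of these differences had the same sign in 3 of 3 libraries, for which a two-sided exact sign permutation test gave p = 0.25, the smallest value that 3 libraries allow, so that this design cannot reach 0.05.

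The share of genes at 1 FPKM or more, which was 54.8% over all joined genes, rose from 0 to 1 peak and then levelled off. It was 41.8%, 41.2% and 41.4% in the 3 libraries with 0 peaks, 83.7%, 83.8% and 84.1% with 1, 87.6%, 86.8% and 87.3% with 2, and 86.1%, 87.2% and 86.6% with 3 or more. Genes with 3 or more peaks differed from those with 2 by -0.601 ± 0.919 percentage points and were higher in 1 of 3 libraries, which is within the spread between libraries.

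The locus of the expression table is often wider than the gene, since overlapping or neighbouring genes were merged there. A locus shared with another gene held 3927 of the 20205 genes and 206 of the 382 with 3 or more peaks, and the locus with the most peaks had 20 peaks and 47 genes over 672 kb. The count was therefore repeated on each gene's own RefSeq span plus 5 kb, which was found for 24120 genes, of which 5481 (22.7%) had at least 1 TCF1 peak and 239 (0.991%) had 3 or more. In these windows the median FPKM was 0.0857, 0.0343 and 0.0898 with 0 peaks, 14.4, 14.3 and 14.1 with 1, 20.4, 20.8 and 20.6 with 2, and 27.3, 30.4 and 30.3 with 3 or more. The share at 1 FPKM or more was 33.6%, 84.9%, 90.6% and 94.7%, and the last step, by 4.05 ± 0.604 percentage points, was positive in 3 of 3 libraries (exact sign permutation p = 0.25). Longer genes have more room for peaks, and the median length rose from 13.1 kb with 0 peaks to 52.1 kb with 3 or more. Within each of 4 equal classes of gene length, genes with 1, 2 and 3 or more peaks all had a median above 10 FPKM and genes with 0 peaks one below 1 FPKM. In the second shortest class the 29 genes with 3 or more peaks, at 20.8 FPKM, were not above the 216 genes with 2, at 23.0.

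**Figure D2:**
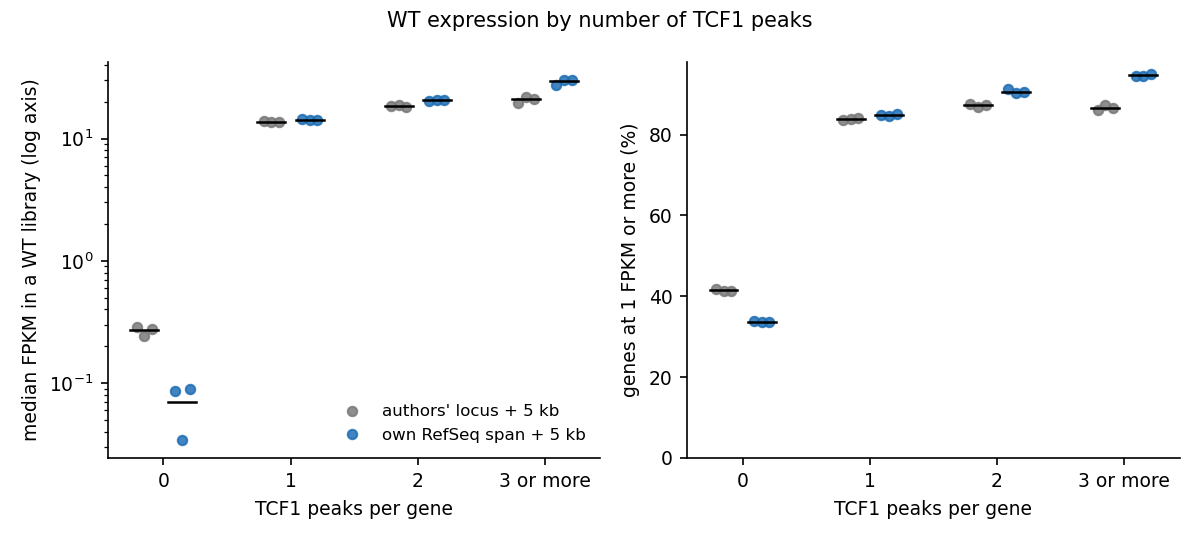
Median FPKM (left, log axis) and percent of genes at 1 FPKM or more (right) by the number of TCF1 peaks, with 1 point for each WT RNA library, a black line at the mean of the 3 libraries, grey for the locus of the expression table plus 5 kb and blue for the gene's own RefSeq span plus 5 kb. Genes with 0 peaks lie below 1 FPKM and all classes with a peak lie above 13 FPKM, and on the right the blue points rise to 94.7% while the grey points stay near 87% from 2 peaks on.

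Genes without a TCF1 peak were mostly genes without an open start, so the comparison was repeated among genes alike in this respect. Of 16331 protein-coding genes with a listed start, 8246 (50.5%) had a start whose base lay in an ATAC peak of each of the 3 libraries. Among these, the 4743 with no TCF1 peak had a median FPKM of 10.9, 10.8 and 10.8. The 638 with a TCF1 peak only elsewhere in the span plus 5 kb had 16.2, 17.3 and 17.2, and the 2865 with one within 1 kb of their own start had 19.4, 19.5 and 19.1. The 3 classes did not overlap between libraries, and 85.6%, 88.8% and 96.5% of their genes were at 1 FPKM or more. A start beside an ATAC peak, or inside one in fewer libraries, counted as not open, so such genes need not have closed promoters. Il7r was counted so, although a TCF1 peak 0.056 kb from its start was open in all 3 libraries. Among genes without an open start, 7512 with no TCF1 peak had a median of 0.0351, 0.0 and 0.0374 FPKM, and 8.67% were expressed. The 468 such genes with a peak elsewhere had 0.806, 0.721 and 0.799 FPKM and the 105 with a peak near a start 11.6, 11.2 and 12.2. Genes of any type with an open start, protein-coding or not, numbered 8616. By own spans, those with 3 or more peaks exceeded those with 0 by 1.62 ± 0.0346 (SD, n = 3) in median log2(FPKM + 1). Over all genes this excess was 4.82.

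Read from expression to binding, the relation was graded. Protein-coding genes with a listed start, open or not, and at least 1 FPKM were ranked into 10 bins of about 836 genes. The share with a TCF1 peak in the own span plus 5 kb was 22.5% in the lowest bin (1.01 to 2.56 FPKM), 41.7% in the bin from 11.4 to 15.5 FPKM and 55.4% in the highest (73.2 to 9950 FPKM). From 20.5 to 28.1 FPKM it was 50.7%, so that it rose by little above that level. In the highest bin, 463 of 836 genes had a TCF1 peak and the others had none.

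Open chromatin followed the number of TCF1 peaks as well. Genes with 0 TCF1 peaks had a mean of 1.52, 1.36 and 1.26 ATAC peaks in the locus plus 5 kb in WT replicates 1, 2 and 3. With 1 TCF1 peak they had 2.88, 2.58 and 2.46, with 2 peaks 4.23, 3.72 and 3.59, and with 3 or more 15.4, 13.3 and 12.7. Genes with 3 or more exceeded genes with 0 by 12.4 ± 1.3 ATAC peaks in 3 of 3 libraries (exact sign permutation p = 0.25). The last step was smaller once the length of the window was taken into account: per 100 kb of window the means were 1.99 ± 0.192, 3.99 ± 0.322, 4.89 ± 0.43 and 5.75 ± 0.595, and on own spans the counts were 1.03, 2.37, 3.42 and 6.56. ATAC peaks that hold a TCF1 peak are part of these counts, and without them the excess by the locus count was 8.22. Genes of a shared locus enter this value with the same peaks, and it was not computed on own spans. No ATAC peak was found for 4959, 5202 and 5457 of the genes with 0 TCF1 peaks, for 8, 10 and 14 of those with 1, and for 0 of those with more. As 88.7% of TCF1 peaks were open in all 3 libraries, the low numbers among genes with a TCF1 peak follow largely from that.

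**Figure D3:**
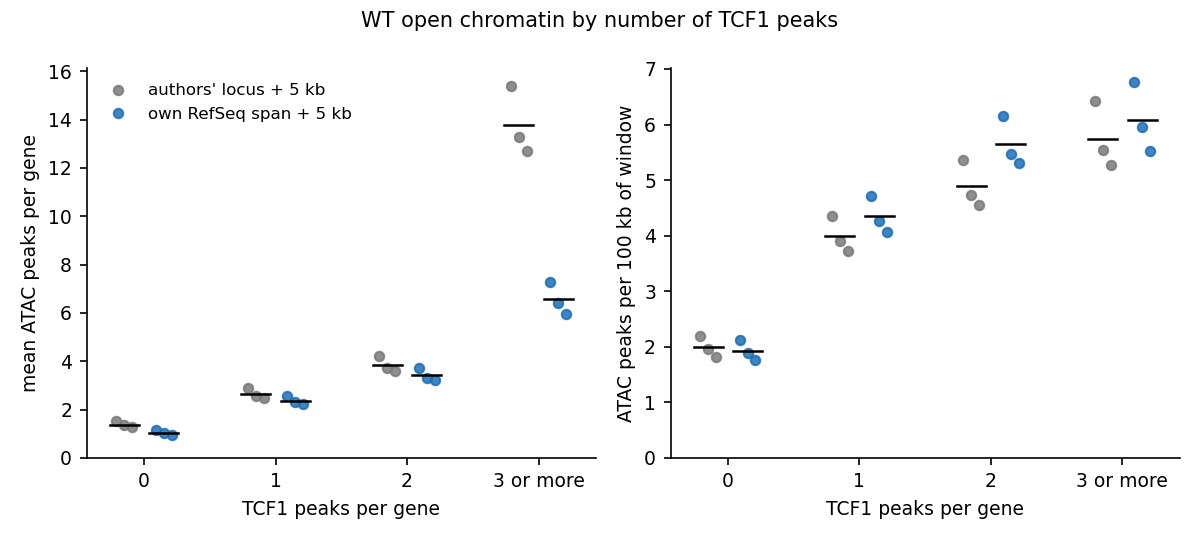
Mean ATAC peaks per gene (left) and ATAC peaks per 100 kb of window (right) by the number of TCF1 peaks, with 1 point for each WT ATAC library, a black line at the mean of the 3 libraries, grey for the locus plus 5 kb and blue for the own span plus 5 kb. The grey points of genes with 3 or more peaks reach 15.4 per gene, and per 100 kb both windows rise most from 0 to 1 peak and reach 5.75 and 6.08.

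The genes of the TCF/LEF family themselves carried TCF1 peaks. Tcf7 stood at 77.8, 67.8 and 73.9 FPKM and had 3 TCF1 peaks, all centred inside its span, 1 of them at the 5′ end of the gene, chr11:52283289-52283430 (mm10, with the listed starts taken to count from 0). Lef1 stood at 38.1, 40.2 and 38.5 FPKM and had 4 peaks, of which 3 were open in all 3 libraries. The relatives Tcf7l1 and Tcf7l2 were at most 0.198 FPKM in any library, and Tcf7l2 had 1 TCF1 peak while Tcf7l1 had none. Ctnnb1, which encodes β-catenin, stood at 135, 144 and 144 FPKM and had 1 peak 0.055 kb from its start. Of the TLE corepressor genes, Tle3 (23.2 ± 1.29 FPKM, SD, n = 3) had a peak, while Tle1 (6.08 ± 1.97), Tle2 (0.265 ± 0.0577) and Tle4 (17.8 ± 2.64) had none. Of the Wnt target genes, Axin2, a feedback inhibitor of the pathway, stood at 9.54, 10.6 and 9.15 FPKM with 2 peaks, at 0.103 kb (chr11:108920382-108920523) and 0.896 kb from its start. Myc, which drives growth, stood at 27, 18.6 and 20.7 FPKM, highest in WT replicate 1, and also had 2 peaks. Of 17 Wnt target genes, 10 had a TCF1 peak (58.8%) and 10 were expressed, with 9 genes in both sets. A peak was found for 22.7% of all genes and 42.6% of expressed genes. Lgr5, Notum, Sp5 and Dkk1, known from intestine and other Wnt-driven tissues, were at or below 0.0272 FPKM on average, without a TCF1 peak or a region open in all 3 libraries.

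The genes that define Tregs were bound at single sites in several cases. Foxp3 stood at 23.7, 29.4 and 31.3 FPKM and had 1 TCF1 peak in its own span, 3.4 kb downstream of the start at chrX:7583816-7583957, that was open in 1 of 3 libraries. The merged locus of Foxp3 holds 4 genes and 4 TCF1 peaks, so 3 of these lie outside the window of Foxp3 itself. Il2ra, which encodes CD25, stood at 59.8, 79.7 and 73.3 FPKM and had 1 peak 10.7 kb into the gene at chr2:11653441-11653582, open in all 3. Ctla4 stood at 303, 327 and 328 FPKM and had its 1 peak centred 2 bp from the start, on the promoter printed above. Ikzf2, which encodes the Treg factor Helios, stood at 138, 190 and 179 FPKM and had 5 peaks, of which 1 was open in all 3 libraries and 3 were open in only 1. Ikzf4, which encodes its relative Eos, stood at 15.0 ± 1.87 FPKM and had 4 peaks in its span plus 5 kb, of which 1 is the peak on the Rps26 promoter printed above and another also lies outside the gene, and its locus count was 2. Tnfrsf18, which encodes the receptor GITR, had 3 peaks at 350, 261 and 265 FPKM. Neither Cd4 (177, 200 and 199 FPKM) nor Cd3e (113, 125 and 119) had a TCF1 peak, although both were expressed at high levels. Of 23 Treg identity genes, 17 had a peak (73.9%), against 22.7% of all genes and 42.6% of genes at 1 FPKM or more. The list had a median of 70.9 FPKM, and among protein-coding genes from 40.5 to 73.2 FPKM 55.3% had a peak. The part of expression in this count was not tested. The 6 without a peak included Izumo1r, which encodes folate receptor 4, at 482 ± 108 FPKM and Capg at 307 ± 45.2.

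**Figure D4:**
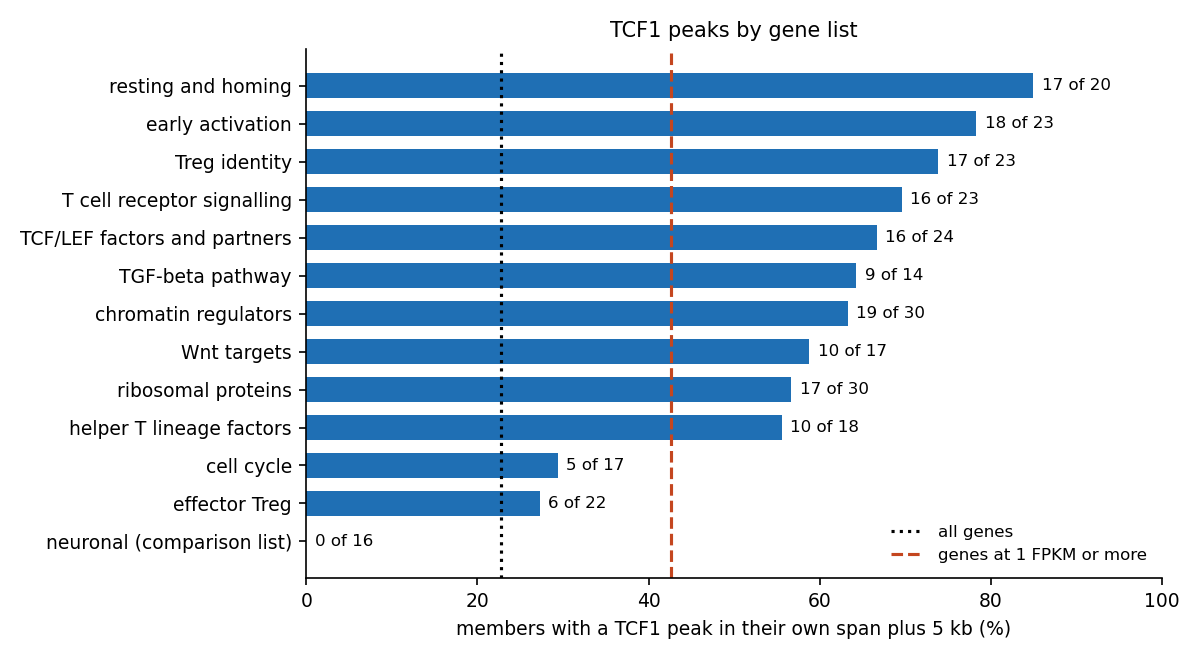
Percent of measured members with a TCF1 peak in their own span plus 5 kb for each gene list, with the counts at the bar ends, the dotted line at 22.7% for all genes and the dashed line at 42.6% for genes at 1 FPKM or more. Resting and homing genes stand highest with 17 of 20, effector Treg and cell cycle genes stand below the dashed line, and no neuronal gene had a peak.

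Genes of resting and homing T cells carried TCF1 peaks in 17 of 20 cases, against 42.6% of all 11140 genes at 1 FPKM or more. With 3 or more peaks there were 6 of the 20, against 0.991% of all genes, expressed or not. Among these 6, Bach2, Foxp1, Ets1 and Satb1 span 348, 597, 122 and 97.1 kb, and the part of gene length was not tested. Ccr7, the chemokine receptor for entry into lymph nodes, stood at 161, 142 and 164 FPKM with 1 peak open in all 3, at chr11:99155301-99155442. Il7r, the receptor of a survival cytokine, stood at 71.4, 77.0 and 74.0 FPKM with 2 peaks, 1 of them 0.056 kb from the start. Satb1, a chromatin organizer of T cells, stood at 43.0, 56.2 and 49.2 FPKM with 3 peaks, all within 1 kb of a start. Cd27, Ly6c1 and Ccr9 were the members without a peak. Of genes outside this list, Id3, an inhibitor of E proteins counted with the TCF/LEF factors and their partners, stood at 101, 87.2 and 83.4 FPKM with 2 peaks. Bcl6, the repressor of follicular T cells counted with the helper lineage factors, stood at 4.48, 4.9 and 4.73 FPKM with 1.

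Effector Treg genes differed in this respect. All 22 were at 1 FPKM or more, yet 6 had a TCF1 peak, which is 27.3% and below the 42.6% of all expressed genes. The members with a peak were Lgals1 (166 ± 27.5 FPKM), Batf (129 ± 46.4), Icos (112 ± 13.1), Itgae (83.1 ± 7.41), Tnfrsf1b (61.8 ± 1.58) and Prdm1 (4.27 ± 0.552), with a median of 97.4 FPKM. The 16 without one had a median of 12.4 FPKM and reached 36.7, in Id2. They included the chemokine receptor genes Cxcr3 (29.8 ± 2.74), Ccr2 (25.7 ± 5.44), Ccr4 (19.9 ± 4.56) and Ccr6 (29.2 ± 4.19) and the factors Irf4 (36.6 ± 8.25) and Tbx21 (1.18 ± 0.298). These members also had fewer open regions, with a mean of 1.31 regions open in all 3 libraries against 4.33 for the bound members and with none at all for 5 of the 16. The effector list thus differs from the resting list in expression and in gene length as well, at medians of 18.9 and 61.8 FPKM and of 13.7 and 27.2 kb, and the part of these differences in the counts was not tested.

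Most other T cell lists lay above the 42.6% of all expressed genes. Their counts cover all measured members, expressed or not. Several lists hold long genes, with medians of 44.5 kb for T cell receptor signalling, 68.7 kb for TGF-β and 52.3 kb for chromatin regulators. Over all genes the median was 15.1 kb. The share with a peak also rose with expression, to 55.4% in the highest bin. The part of length and expression in these counts was not tested. T cell receptor signalling genes had a peak in 16 of 23 measured cases (24 listed) at a median of 134 FPKM, among them Prkcq with 5 peaks (150 ± 8.18 FPKM) and Cd5 with 3 (250 ± 12.5), which encode a kinase and an inhibitory receptor of this pathway. Early activation genes had one in 18 of 23 cases, with 3 peaks each for Nr4a1 (15.3 ± 1.95 FPKM), Nr4a3 (4.72 ± 0.401) and Nfkb2 (36 ± 7.76). Helper T cell lineage factors had one in 10 of 18 measured (20 listed), with 5 peaks for Stat5b (72.5 ± 3.98 FPKM), the signal transducer of the IL-2 receptor. Genes of the TGF-β pathway had one in 9 of 14, with 4 each for Smad3 (18.3 ± 2.13 FPKM) and Smad7 (22.6 ± 1.63), and chromatin regulators in 19 of 30. The factors and partners of the TCF/LEF family had one in 16 of 24, among them Bcl11b (58.8 ± 3.54 FPKM) and Runx1 (8.62 ± 0.618) with 4 each. Cell cycle genes had one in 5 of 17 (29.4%), all of them expressed, at a median of 9.68 FPKM and from 1.26 FPKM upward. Among protein-coding genes 22.5% had a peak from 1.01 to 2.56 FPKM and 41.1% from 7.98 to 11.4 FPKM. Neuronal genes had one in 0 of 16, at a median of 0.0186 FPKM. The share among all genes below 1 FPKM was not computed for comparison. Ribosomal protein genes, short and very highly expressed, had one in 17 of 30, and none of them had 3 or more. Their median FPKM was 1630, 918 and 890 in the 3 libraries. WT replicate 1 was highest for 27 of the 30, and for 4722 of all 11140 expressed genes. Over all expressed genes the median ratio of WT replicate 1 to the mean of the other libraries was 1.0 against 1.36 for the ribosomal list. Cell cycle genes moved the same way, with a ratio of 1.2.

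The 10 genes with the most TCF1 peaks in their own span had spans of 87.5 to 792 kb. Bach2, a repressor that keeps T cells from effector programs, had 12 peaks over 348 kb at 5.88, 8.03 and 8.21 FPKM. Of these, 8 were open in all 3 libraries and 3 in none. The locus given for Bach2 in the expression table covered 1 of the 12, so by the locus count this gene stands in the class with 1 peak. Itpkb, an inositol phosphate kinase that acts in lymphocyte signalling, had 11 peaks over 94.4 kb at 45.8, 50.5 and 52.8 FPKM, of which 6 were open in all 3. Inpp4b, a phosphoinositide phosphatase, stood at 297, 385 and 333 FPKM with 9 peaks, and Hivep2, a zinc finger factor, at 26.5, 34.8 and 32.5 with 9. Prkch (132 ± 16.6 FPKM) and Akap13 (103 ± 14.5) had 7 each, and Elf1 (76.0 ± 10.3), Pik3r1 (59.1 ± 4.27) and Foxp1 (39.2 ± 7.17) 6 each. Foxp1 is a known keeper of T cell quiescence, Elf1 is an ETS factor and Pik3r1 encodes a regulatory subunit of phosphoinositide 3-kinase. Tex14, which acts in germ cells, had 8 peaks, all open in all 3 libraries, at 0.388, 0.403 and 0.335 FPKM, in a merged locus of 13 genes.

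Peak number and expression also came apart at both ends of the scale. Among genes with 3 or more peaks in their own span, the highest protein-coding ones were Eef1a1, a translation factor, at 5680, 5460 and 4840 FPKM, B2m at 4220, 4640 and 3880, Shisa5 at 1850, 2030 and 1910 and Coro1a, an actin regulator of leukocytes, at 2170, 1310 and 1390. Of the 4 Coro1a peaks, 2 were outside every ATAC peak. Among protein-coding genes without a TCF1 peak the highest was Tmsb4x, an actin-binding peptide gene on the X chromosome, at 12500, 9120 and 8270 FPKM, followed by the ribosomal protein genes Rplp1 (4920 ± 1440), Rpl39 (4520 ± 686), Rps20 (4120 ± 1840) and Rpl32 (3730 ± 1140). All of these were highest in WT replicate 1, as were 4722 of the 11140 expressed genes. At the low end, Chrna9, a nicotinic receptor subunit gene, had 3 TCF1 peaks and 3 regions open in all 3 libraries at 0.0206, 0.0 and 0.0194 FPKM. Chrm5, a muscarinic receptor gene, had 2 peaks at 0.0, 0.0 and 0.0452. These are counts on own spans, and by the locus count both genes had 0 TCF1 peaks. The Chrna9 peaks all lie in the same open region, chr5:65955318-65956413, whose nearest listed start is that of 4930480C01Rik. Small RNA genes such as Mir682 and Snord15b had very high FPKM without a peak, but a level divided by so short a length is uncertain, and they are left out of the statements on single genes.

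The letters of the TCF/LEF motif were found at similar rates in bound and unbound open promoters, with overlapping intervals. Here a promoter counted as open if any of its bases lay in a region open in all 3 libraries, a looser rule than the start base used above. The letters were found in 11.1% of 2855 open promoters with a TCF1 peak over them (exact binomial 95% interval 9.97 to 12.3). For the 9044 open promoters without one it was 10.3% (9.65 to 10.9). Over all 32851 promoters the share was 16.9%, and over promoters not open in all 3 libraries 20.5%. GC content differs between these sets, with a median of 64.0% with TCF1 and 61.3% without, and TCF/LEF letters are rich in A and T. In the lowest of 3 classes of GC content the share was 23.6% with TCF1 (20.5 to 26.8) and 17.3% without (16 to 18.6), and these intervals do not overlap, while in the middle class it was 9.74% and 7.95% and in the highest 4.42% and 4.39%, with overlapping intervals.

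The ETS letters CCGGAAG were found in 28.3% of open promoters with a TCF1 peak (26.7 to 30.0), in 17.1% of open promoters without one (16.4 to 17.9) and in 8.86% of all promoters. The difference was present in each class of GC content, at 29.2% against 15.6%, 32.2% against 20.4% and 24.4% against 15.5%. The letters also gathered under the peaks: around the 2947 TCF1 peaks with promoter sequence within 500 bp, they numbered 1.66 per 1000 positions within 35 bp of the centre (1.45 to 1.89) and 0.561 more than 300 bp away (0.448 to 0.695). For the TCF/LEF letters these densities were 0.466 (0.359 to 0.596) and 0.441 (0.341 to 0.561), which overlap. The CCAAT box, CCAAT on either strand, was less dense near the centre, at 1.09 against 1.82, and the GC box GGGCGG differed little, at 5.96 against 5.48. In shares of open promoters with and without TCF1, the CCAAT box gave 31.1% and 40.7%, the GC box 71.4% and 66.4%, the RUNX letters TGTGGTT 3.43% and 3.66%, the E-box CAGCTG 11.7% and 14.6%, and the AP-1 letters TGACTCA or their reverse complement TGAGTCA 2.52% and 3.13%. The families other than TCF/LEF were chosen after values had been seen, matches of different families were allowed to overlap, and promoters of 1 gene can share sequence. Only promoter sequence was read, so the TCF1 peaks far from starts have no motif count here. In this sequence the distance from a peak's centre is tied to the distance from the start, and their parts in the densities were not tested. A match is a string of letters and not a measured contact.

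**Figure D5:**
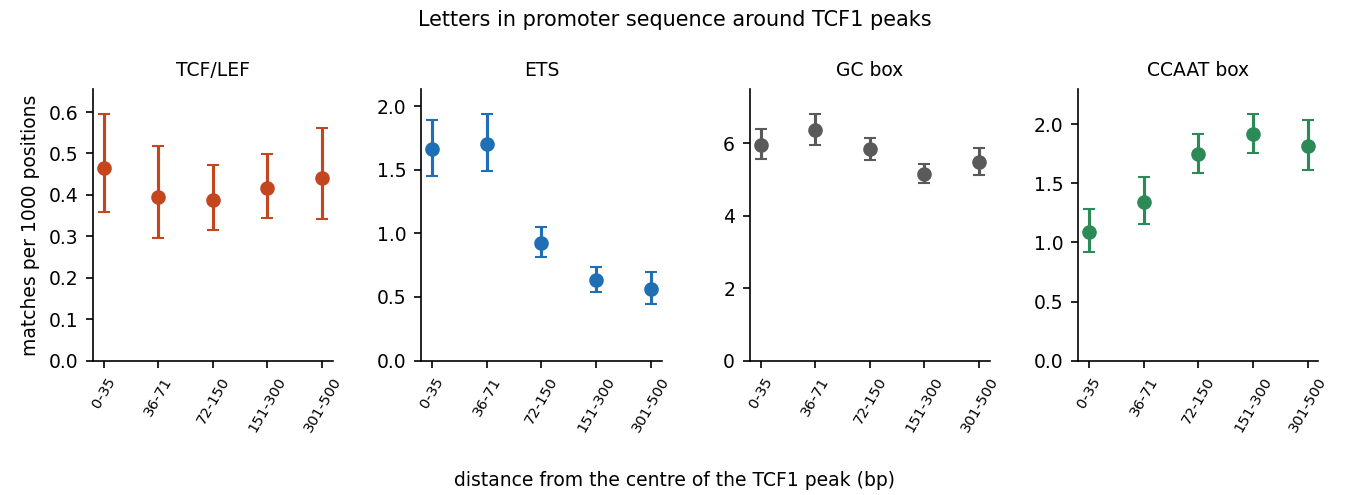
Matches per 1000 positions (vertical axes, each from 0, with its own scale) of the TCF/LEF letters, the ETS letters, the GC box and the CCAAT box in promoter sequence by distance in bp from the centre of the TCF1 peak, with points for the density and bars for exact binomial 95% intervals that cover counting error only. The ETS letters fall from 1.66 at the centre to 0.561 beyond 300 bp, and the TCF/LEF letters stay between 0.388 and 0.466.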

How the data were processed

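Expression values were deposited as FPKM per gene and library in a Cuffdiff table, per the file headers. The same table holds an estimated count of fragments per gene and library, made by the authors before scaling, per the file headers. ATAC peaks were deposited as 1 list per library, in which the authors gave a pileup signal, a fold ratio and −log10 p- and q-values per peak. TCF1 peaks were deposited as 1 list. Bowtie, HOMER and MACS2 and the build mm10 appear in the submitters' processing notes, without versions or roles. For the RNA aligner, gene annotation and peak thresholds, the choice is not given in the sources used here.

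Gene names were tied to loci of the authors' differential expression table by both group FPKM values within a relative tolerance of 0.0001. The value of the other group served only as a key. Of 24313 names, 20377 matched 1 locus, 171 were dropped because the locus disagreed with the RefSeq gene table and 1 because its wild-type estimate had failed. Of the rest, 2488 were at 0 in both groups, 1342 matched several loci and 106 none. The table holds 25 date-like names made from gene symbols, with 0.267% to 0.281% of fragments. Estimates marked as failed in wild-type numbered 78. Depth was 25430644 to 31527256 fragments, and 92.9% of the estimated counts were whole numbers. With 1 group there was no gene-wise test.

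A peak was counted in a window at an overlap of at least 1 bp, with 5 kb flanks. A region was a union of overlapping ATAC peaks. Own spans and starts came from RefSeq, GRCm38.p6, where 24120 names matched; the promoter table has 32851 starts of 27025 genes. It lists no start on chromosome 18 and not every start of every gene. Genes at 1 FPKM or more were called expressed. Differences over 3 libraries were tested with a two-sided exact sign permutation test, and intervals are exact binomial (95%) and cover counting error only. The RNA table numbers its wild-type replicates without sample names, so replicate numbers are names only and pair no samples. In the ATAC lists the rank correlation of a peak's width with its pileup was 0.0381 to 0.0394, so scores were used only for the stricter-threshold alternative.

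Named genes were 16 given genes, those with most TCF1 peaks, the highest and lowest in expression among bound genes, the highest among unbound genes, and up to 3 members per list with most TCF1 peaks; ribosomal, own-span and low-expression examples and the other list members named were added after values were seen. Some members of these sets are not reported here. The members and lists were chosen with earlier results of these data known. Alternatives were other flanks, windows, pseudocounts, thresholds and length classes, and leaving out each library. The counting and test were tested on simulated data. Python 3.11.15, pandas 2.3.3, numpy 2.4.6, scipy 1.17.1 and matplotlib 3.10.9 were used.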

Additional observations from a re-analysis of the deposited data

How the results depend on the processing

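The excess of genes with 3 or more TCF1 peaks over genes with 0 kept its direction in all 16 alternatives for the median log2(FPKM + 1), all 14 for the share expressed and all 14 for ATAC peaks. Some of these could not have turned it around. Each excess was positive in 3 of 3 libraries, so leaving out 1 library keeps the sign, and a pseudocount keeps the order of medians. These alternatives show only how the size of the excess changes. The first ranged from 1.23 among genes at 1 FPKM or more to 5.83 with a pseudocount of 0.1, and from 4.06 to 4.16 without 1 library. The second ranged from 11.8 percentage points among genes with an open start, an alternative chosen after seeing the data, to 61.7 in the shortest of 4 length classes, and from 44.8 to 45.6 without 1 library. The excess in ATAC peaks per gene ranged from 1.79 in the second shortest length class to 19.1 without flanks, from 11.7 to 12.9 without 1 library, and was 5.19 for genes alone in their locus.

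The share of TCF1 peaks in open chromatin was 89.4% with an overlap of at least 71 bp, 50.2% with a stricter ATAC threshold and 91.0% to 92.5% without 1 library. The threshold kept only peaks at or above the median q score of their library, which can only lower the share. It uses scores that do not follow the peaks' widths, and the cause of the fall was not tested. Within 0.5 kb of a start lay 49.5% of TCF1 peaks and within 5 kb 64.4%, by construction fewer and more than the 54.6% within 1 kb. The share of genes with a TCF1 peak was 18.5% without flanks, 38.9% with 20 kb, 22.7% on own spans and 25.0% for genes alone in their locus, the last chosen after seeing the data. No paired analysis was possible because the RNA columns carry no sample names and the TCF1 assay has 1 library. A single TCF1 library limits every count of peaks, and weak sites below the unstated threshold are not seen.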

Other observations

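There were 105 protein-coding genes with a TCF1 peak within 1 kb of a start but no start base in an ATAC peak of all 3 libraries. Of these, 80.6% were at 1 FPKM or more, against 85.6% of genes with an open start and no TCF1 peak. Genes with an open start and a TCF1 peak within 1 kb of it stood at 96.5%. Starts counted as not open can lie beside an open region, as at Il7r and Polr2e. At Kmt2d and Cnn2, also in this class, the TCF1 peak nearest to the start lay outside every ATAC peak. The order of the TCF1 list, whose ranking the sources used here do not explain, went with openness: of 5 equal parts of the list, the first had 91.2% of its peaks and the last 86.2% open in all 3 ATAC libraries.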
